A study of Homo sapiens with 18 samples.

Results

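The genes described here are 46 listed zinc finger genes of human chromosome 19 bands q13.1 to q13.3, out of 26475 genes counted. They were chosen by symbol and position, though with earlier results of these data known. Other zinc finger genes, HKR1, ZFP14, ZFP30 and ZFP82 among them, lie inside the same spans and are not members. The members lie in 2 arrays in the GRCh38 build, with 26 members on chromosome 19 from 36182060 to 37817300 (bands q13.12 to q13.13) and 20 members from 43827292 to 44500524 (band q13.31). Their transcripts were measured by RNA-seq in Mel92.1 and MP41, both established uveal melanoma cell lines, with 3 replicates of each of 3 agents per line and 18 libraries in all. Cells received DMSO, the solvent control, or the EHMT2 inhibitor UNC0642 or A366 at 1 μM, and the inhibitors were given for 48 h. No genetic change was made in either line. The study's methods call the replicates of its experiments biological in a general statement, without saying whether these libraries came from separate cultures, so p-values measure the spread between these libraries. Both inhibitors also act on EHMT1. A difference between the lines is a difference between 2 cultures and nothing wider.

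KRAB zinc finger proteins bind DNA through arrays of C2H2 zinc fingers. Their KRAB domain recruits TRIM28, which brings in SETDB1 and HP1 proteins, and these deposit and read H3K9 trimethylation, a repressive histone mark found over many transposable elements. The genes arose by tandem duplication and lie side by side on chromosome 19, where many of them carry the same mark over their own 3′ exons. EHMT2 (G9a) and EHMT1 (GLP) place mono- and dimethylation on H3K9. Not all members carry the KRAB domain: ZNF146 and ZNF260, for example, consist of little but zinc fingers.

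The libraries held 23601156 to 62941462 counts each. The 4 libraries labelled A366 replicates 2 and 3 of either line went against their labels. The study's own lists of changed genes carry them under the other line, and they were placed there for the main values. A member showed the same split, since ZNF229 had 0 counts in both libraries labelled MP41 and 116 and 75 counts in both labelled Mel92.1. Values that rest on these libraries are also given as labelled and without them. Mel92.1 UNC0642 replicate 1 stood apart as well. It was the shallowest library, 32.8% of its counts fell on 4 ribosomal RNA genes against at most 19.5% in any other library, and 11 members had a count of 0 in it against at most 2 in any other library. The 7 listed melanocyte genes were all above 1 CPM (the count as a share of the library's counts, scaled by TMM factors) on average in both lines, while all 4 leukocyte and all 3 epithelial genes listed were below 1 CPM on average. Of 4 fibroblast genes COL1A1 and LUM were above 10 CPM on average in both lines and COL3A1 and DCN below 1 CPM, with a summed level of 35.2 to 53.9 CPM in Mel92.1 and 22.5 to 33.6 CPM in MP41. The 3 endothelial genes were below 1 CPM on average, except VWF in MP41.

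The members were long, AT-rich genes. Their longest annotated transcript ran from 1598 to 8618 bases with a median of 4114, against a median of 3532 over all genes tested, and their median GC content was 40.5% against 48.6%. Their longest reading frames encoded 3 to 29 C2H2 fingers (median 13.5), with 29 in ZNF850 and 3 in ZNF781. In the 19q13.12 array 15 members were on the minus strand and 11 on the plus strand, and in the 19q13.31 array 7 were on the minus strand and 13 on the plus strand. The spans of 22 members overlapped another annotated gene, 21 of them on the opposite strand. Library preparation kept strand, but whether the counting used it is not given in the sources used here, so reads from a member and its antisense partner may not be told apart.

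Most members were weakly expressed. In DMSO libraries the median level per kilobase of the longest transcript was 1.10 CPM per kb over the 42 members that passed the filter on low counts in Mel92.1, against 5.93 CPM per kb over all genes tested. In MP41 all 46 members passed, with a median of 0.741 CPM per kb against 5.85 over all genes. Only 1 member in each line, ZNF146, was above the median of all genes. The 4 members below the filter in Mel92.1 were ZNF585B, ZNF404, ZNF233 and ZNF229.

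ZNF146 had 31.0 ± 3.04 CPM per kb in Mel92.1 and 16.8 ± 1.09 in MP41 (SD, n = 3). The next 4 in Mel92.1 were ZNF155 at 3.85 ± 0.161 CPM per kb, ZNF45 at 3.80 ± 0.300, ZNF227 at 3.76 ± 0.341 and ZNF529 at 3.46 ± 0.283 (SD, n = 3). Among these 4, each differed from its neighbour in the order by less than their SDs added. In MP41 the next 4 were ZNF227 at 3.06 ± 0.456 CPM per kb, ZNF260 at 2.92 ± 0.304, ZNF45 at 2.60 ± 0.220 and ZNF569 at 2.40 ± 0.0543 (SD, n = 3), again with neighbours closer than their SDs added. At the low end, the 3 lowest that passed the filter were ZNF793, ZNF221 and ZNF570 in Mel92.1 (0.0630, 0.139 and 0.184 CPM per kb) and ZNF233, ZNF781 and ZNF223 in MP41 (0.0909, 0.107 and 0.139 CPM per kb).

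**Figure D1:**
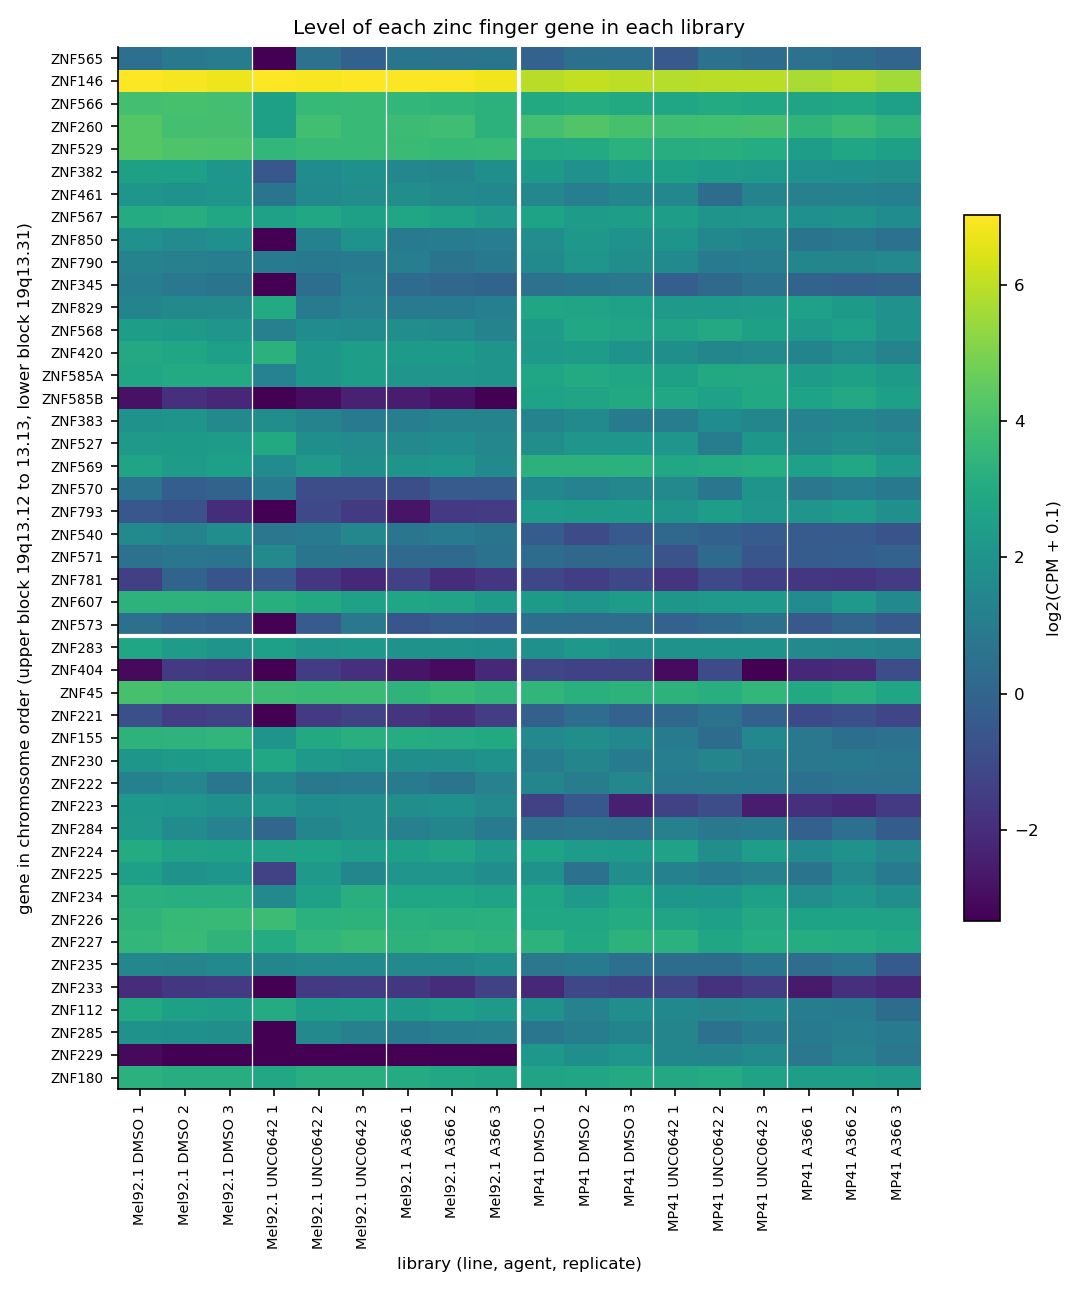
Level of the 46 zinc finger genes (rows, in chromosome order) in the 18 libraries (columns, by line, agent and replicate), as log2(CPM + 0.1). ZNF146 is the brightest row, ZNF229 and ZNF585B are dark across Mel92.1, ZNF223 is dark across MP41, and Mel92.1 UNC0642 replicate 1 holds 11 members with a count of 0.

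Without inhibitor, the lines differed in 23 members, of which 15 were higher in Mel92.1 and 8 were higher in MP41 (edgeR quasi-likelihood test, adjusted p under 0.05, fit of all 18 libraries). Over all genes tested, 34.5% were higher in Mel92.1 and 34.8% were higher in MP41. By this fit the share of members higher in Mel92.1, 32.6%, was near the background, and the share lower, 17.4%, was below it. The lower share also stayed below the background with a GC and length offset, by limma voom, without Mel92.1 UNC0642 replicate 1 and as labelled. The higher share was above the background in these runs except as labelled, where it was below. With GC content and length as an offset 28 members were higher and 5 lower (35.5% and 33.6% of all genes), with a median of 0.78, and limma voom called 26 higher and 9 lower (40.9% and 42.3% of all genes). Without Mel92.1 UNC0642 replicate 1, which enters the estimate of spread, edgeR called 21 higher (37.2% of all genes). The median log2 difference was 0.45 over the members, against -0.02 over all genes and -0.30 over 2283 other genes of like length and GC content. Over 193 other ZNF genes on chromosome 19 it was 0.37 (41.5% higher in Mel92.1 and 31.1% lower). Over 10 other genes inside the spans it was 0.64 (50% higher and 10% lower). The largest differences were in single members that one line hardly expressed. As labelled 10 members were higher and 4 lower, where 4461 of 15799 genes were higher and 4273 lower. Without the 4 libraries the median over the members was 0.47 against -0.01 over all genes.

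ZNF229 was nearly absent from Mel92.1. It had 1, 0 and 0 counts in the Mel92.1 DMSO libraries, where a count of 0 allows up to 3, and 204, 150 and 190 counts in MP41 (4.404, 3.46 and 4.11 CPM). Summed over 3 libraries, 544 counts stood against 1, a ratio of 496 with an exact 95% interval of 88.6 to 19608 that covers counting error only. All 9 libraries placed in Mel92.1 were at 0.0207 CPM or less, and all 9 placed in MP41 were at 1.60 CPM or more.

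ZNF585B showed the same direction, with 923 counts in the MP41 DMSO libraries against 13 in those of Mel92.1, a ratio of 64.7 (exact 95% interval 37.6 to 122, counting error only). Its level was 6.30, 6.48 and 7.57 CPM in MP41 and 0.0414, 0.161 and 0.131 CPM in Mel92.1. Its near copy ZNF585A, which lies beside it and encodes a protein of the same length (769 residues), was at 6.69, 7.91 and 6.68 CPM in MP41 and 6.91, 7.80 and 7.81 CPM in Mel92.1. The split of reads between these paralogs rests on the authors' estimation and is uncertain. ZNF793 was at 5.14, 4.87 and 4.91 CPM in MP41 and 0.600, 0.511 and 0.157 CPM in Mel92.1 (log2 difference -3.55, SE 0.49, adjusted p = 4.90e-06 by edgeR).

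RefSeq windows from 250 bases before to 50 after the start are shown for these 3 members because they were low in only 1 of the lines. Capitals mark each CG dinucleotide, the site of DNA methylation in human cells, counted on the strand shown.
ZNF229: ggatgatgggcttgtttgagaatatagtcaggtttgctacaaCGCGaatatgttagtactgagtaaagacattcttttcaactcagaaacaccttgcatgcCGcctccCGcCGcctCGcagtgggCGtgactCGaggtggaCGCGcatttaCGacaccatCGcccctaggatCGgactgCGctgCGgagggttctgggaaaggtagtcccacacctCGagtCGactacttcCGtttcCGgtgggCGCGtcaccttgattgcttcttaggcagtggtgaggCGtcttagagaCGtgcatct
ZNF585B: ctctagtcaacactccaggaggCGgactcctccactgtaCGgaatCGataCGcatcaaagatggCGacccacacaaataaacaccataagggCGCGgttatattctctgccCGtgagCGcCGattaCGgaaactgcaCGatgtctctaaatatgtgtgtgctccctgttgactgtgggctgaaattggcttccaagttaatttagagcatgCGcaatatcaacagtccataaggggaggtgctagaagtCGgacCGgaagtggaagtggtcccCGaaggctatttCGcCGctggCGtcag
ZNF793: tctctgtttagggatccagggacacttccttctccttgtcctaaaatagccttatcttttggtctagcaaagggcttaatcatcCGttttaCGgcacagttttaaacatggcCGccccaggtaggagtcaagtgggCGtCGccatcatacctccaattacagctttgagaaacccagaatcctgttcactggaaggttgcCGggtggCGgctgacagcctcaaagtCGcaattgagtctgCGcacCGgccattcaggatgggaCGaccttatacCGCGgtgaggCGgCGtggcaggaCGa
These windows lie on chromosome 19 of GRCh38.p14, for ZNF229 at chr19:44448423-44448722 on the minus strand, for ZNF585B at chr19:37210487-37210786 on the minus strand and for ZNF793 at chr19:37506689-37506988 on the plus strand. They hold 23, 19 and 16 CG dinucleotides, and 35.8%, 42.9% and 47.5% of all RefSeq windows of the same length hold at least as many. ZNF229 has a second window further upstream, with 15. Windows were found for 40 of the 46 members, and taking the window richest in CG for each, the median was 20 against 14 over all windows. DNA methylation was not measured in these samples.

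ZNF223 was the member most higher in Mel92.1, at 4.43, 4.22 and 3.58 CPM against 0.302, 0.623 and 0.0865 CPM in MP41 (log2 difference 3.57, SE 0.52, adjusted p = 8.73e-06 by edgeR). ZNF540 was at 2.92, 2.37 and 3.29 CPM against 0.712, 0.415 and 0.649 CPM (2.24, SE 0.31). ZNF155 was at 10.1, 10.4 and 10.99 CPM against 2.79, 3.32 and 2.77 CPM (1.81, SE 0.28). For these 3 members no Mel92.1 library overlapped an MP41 library. ZNF284 (1.25, SE 0.37) and ZNF230 (1.19, SE 0.22) followed. Of the 5 members lowest in Mel92.1, the remaining 2 were ZNF221 (-1.43, SE 0.53, adjusted p = 0.0243) and ZNF570 (-1.33, SE 0.45, adjusted p = 0.0149). Both calls were lost without Mel92.1 DMSO replicate 2 or 3 (adjusted p of 0.0912 or 0.0759 for ZNF221 and 0.0663 or 0.0530 for ZNF570, edgeR), and that of ZNF221 also without MP41 DMSO replicate 2 (0.0834). As labelled ZNF221, ZNF570 and ZNF284 were not called (adjusted p of 0.0860, 0.0861 and 0.0501), nor was ZNF221 without the 4 libraries (0.0806) or ZNF570 with the GC and length offset (0.0891).

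Neighbours in the arrays did not always share a direction. ZNF221 and ZNF155 lie next to each other in 19q13.31 and differed between the lines in opposite directions. ZNF585B and ZNF383 lie on opposite strands, with overlapping annotated spans and 5′ ends 227 bases apart. ZNF585B was lower in Mel92.1 and ZNF383 had a log2 difference of 0.58 (adjusted p = 0.0645 by edgeR). The RefSeq window of ZNF585B shown above lies farther from ZNF383. Another 3 pairs on opposite strands have annotated 5′ ends within 1000 bases of each other. ZNF529 and ZNF382 are such a pair, with overlapping spans and 5′ ends 459 bases apart. ZNF529 was higher in Mel92.1 (1.09, adjusted p = 4.14e-07) and ZNF382, known to be silenced in several carcinomas, had 0.17 (adjusted p = 0.673).

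**Figure D2:**
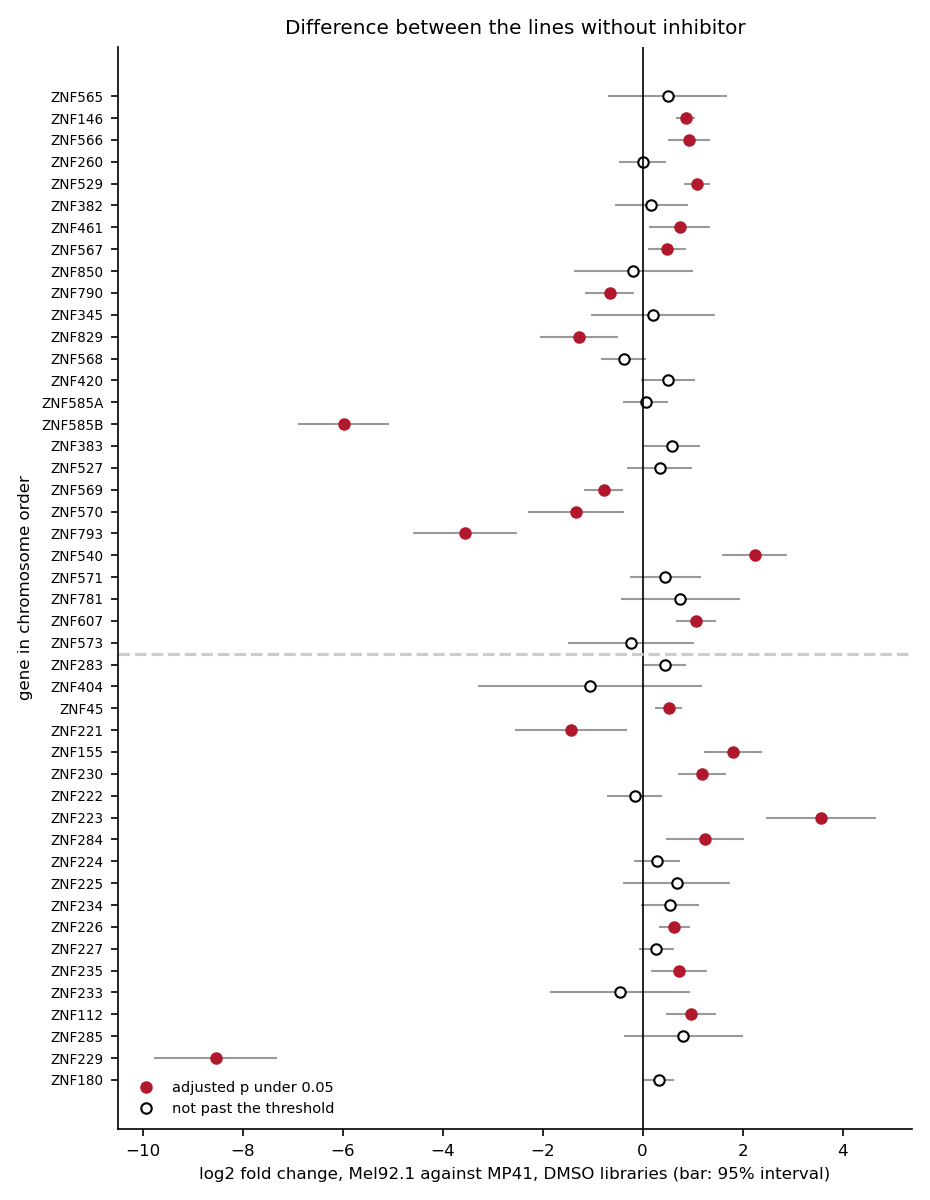
Log2 fold change of each member in Mel92.1 against MP41 over the DMSO libraries, with 95% intervals from the fit, in chromosome order with a dashed line between the arrays. Filled points mark the 23 members past the threshold. ZNF229, ZNF585B and ZNF793 lie farthest to the left, and the fitted position of ZNF229 depends on how counts of 0 are treated.

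In Mel92.1 the members sat lower with either inhibitor, but none passed the test. With UNC0642 against DMSO, 0 of 42 members were called by edgeR, 8 had an unadjusted p under 0.05, all lower, and the median log2 fold change was -0.46 against -0.02 over all genes. Of all 14528 genes tested 0.688% were called, and 1442 had an unadjusted p under 0.05, 592 of them lower. The count of members at such a p ran from 2 without DMSO replicate 1 (1261 of 14691 genes) to 15 without UNC0642 replicate 1 (1700 of 14776). DESeq2 called 1 member, ZNF529, among 2.64% of all genes, and limma voom with sample quality weights called ZNF529 and ZNF585A, among 2.84%. With A366 edgeR also called 0 members where it called 0.213% of all genes, 10 had an unadjusted p under 0.05, all lower, and the median was -0.49 against -0.01 over all genes. An unadjusted p under 0.05 was found here for 628 of all 14528 genes, 269 of them lower. The count of members ran from 4 without A366 replicate 3 (511 of 14697 genes) to 29 without UNC0642 replicate 1 (1389 of 14776).

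The A366 result in Mel92.1 turned on the test. DESeq2 called ZNF529 and ZNF607 (1.18% of all genes called), while limma voom, which gives less weight to libraries that vary more, called 24 members, all lower, where it called 10.8% of all genes as lower. Without Mel92.1 UNC0642 replicate 1, which also sets the spread for this comparison, edgeR called ZNF527, ZNF529, ZNF566, ZNF585A and ZNF607 as lower with A366 (0.311% of all genes were lower) and ZNF529 as lower with UNC0642 (0.345% of all genes). As labelled edgeR called 0 of 14692 genes with A366 in Mel92.1, so that its 0 members there tell nothing about the members. The median over the members was -0.69 as labelled, against -0.01 over all genes. Without the 4 libraries, which leaves 1 A366 library, it was -0.49 against -0.02.

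Replicates separated more often than the calls alone show. All 3 A366 libraries lay below all 3 DMSO libraries for 30 of 42 members in Mel92.1, against 7.54% of all genes tested. As labelled the count was 28 (11.2% of all genes), and the 1 A366 library left without the 4 lay below all DMSO libraries for 36 (20.6%). The like count was 13 of 42 with UNC0642, against 9.10% of all genes. No member lay above DMSO in all 3 libraries of either inhibitor, against 6.61% of all genes with UNC0642 and 8.34% with A366. Other ZNF genes on chromosome 19 also lay below DMSO: 90 of 174 (51.7%) did with A366, and their median log2 fold change was -0.38. With UNC0642 49 of the 174 (28.2%) lay below, with a median of -0.18. Among other genes of like length and GC content 3.91% lay below and the median was 0.03, and among other long genes (longest transcript of at least 4114 bases) 6.77% lay below and the median was -0.0022. Of 9 other genes inside the spans, 7 lay below DMSO with A366 (median -0.67) and 3 with UNC0642 (median -0.45). HKR1, one of these 9, was called lower with A366 (-0.63, SE 0.09, adjusted p = 0.0274 by edgeR). As labelled edgeR called no gene in this comparison.

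ZNF529 had the smallest p with both inhibitors in Mel92.1. The DMSO libraries held 19.7, 17.99 and 16.7 CPM, those of UNC0642 11.4, 12.6 and 12.4 CPM, and those of A366 12.96, 12.1 and 12.5 CPM, with no overlap between either inhibitor and DMSO. The log2 fold change was -0.56 (SE 0.11, adjusted p = 0.0587) with UNC0642 and -0.53 (SE 0.11, adjusted p = 0.128) with A366 by edgeR. ZNF585A was at 6.91, 7.80 and 7.81 CPM with DMSO, 2.30, 4.36 and 5.45 under UNC0642 and 4.08, 4.10 and 4.01 under A366, again without overlap (UNC0642 -0.86, SE 0.27, adjusted p = 0.307).

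ZNF568, whose mouse homologue silences a placental Igf2 transcript, had a log2 fold change of -0.77 (SE 0.25, adjusted p = 0.326) with UNC0642. With A366, ZNF607 was at 6.73, 6.40 and 5.16 CPM against 10.0, 10.2 and 9.82 with DMSO (-0.71, SE 0.17, adjusted p = 0.274). ZNF45 had -0.41 (SE 0.11, adjusted p = 0.423). The DMSO libraries are shared by both comparisons, so the inhibitors are not independent in this line. By array, the median with UNC0642 was -0.56 over the 25 tested members of 19q13.12 and -0.18 over the 17 of 19q13.31, and with A366 it was -0.64 and -0.34.

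In MP41 UNC0642 changed no member past the threshold and A366 lowered 20. With UNC0642, 0 of 46 members were called by edgeR, DESeq2 or limma voom (0.241% of all genes called by edgeR), 5 had an unadjusted p under 0.05, all lower, and the median log2 fold change was -0.15 against 0.0011 over all genes. Of all 14956 genes tested 1316 had an unadjusted p under 0.05, 621 of them lower. The 3 UNC0642 libraries lay below all DMSO libraries for 6 of 46 members, against 11.1% of all genes. The like share was 22.1% of other ZNF genes on chromosome 19, whose median was -0.10. The smallest p values belonged to ZNF420, a negative regulator of p53 (-0.61, SE 0.19, adjusted p = 0.348), ZNF229 (-0.58, SE 0.20, adjusted p = 0.382) and ZNF790 (-0.60, SE 0.22, adjusted p = 0.435).

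With A366 in MP41, 20 of 46 members fell and 0 rose, while 23.5% of all genes tested fell and 22.5% rose. The median over the members was -0.49 against 0.02 over all genes. All 3 A366 libraries lay below all 3 DMSO libraries for 28 of 46 members, against 26.6% of all genes. As labelled the count was 16 (21.3% of all genes), and the 1 A366 library left without the 4 lay below for 36 (35.2%). In each array 10 members fell, of 26 in 19q13.12 and of 20 in 19q13.31. As labelled, 8 members were called lower (13.4% of all genes), and without the 4 libraries 13 were (19.8%), with A366 then resting on 1 library whose spread is taken from the other groups.

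Long genes as a class fell with A366 in this line. Of 5728 other long genes 41.7% fell, and of 2176 other genes of like length and GC content 44.7% fell, with medians of -0.20 and -0.22. Of 430 other ZNF genes 47.2% fell with a median of -0.39, and of 190 other ZNF genes on chromosome 19, 56.8% fell with a median of -0.57. Of 10 other genes inside the spans, 3 fell and 0 rose, with a median of 0.17. The share of members that fell, 43.5%, was therefore above that of all genes and near that of long genes, while their median was lower than that of long genes. With GC content and transcript length entered as an offset, 12 members fell, where 18.8% of all genes fell, and the median over the members was -0.25. The part that this library-wide shift plays in the change of each member was not tested.

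**Figure D3:**
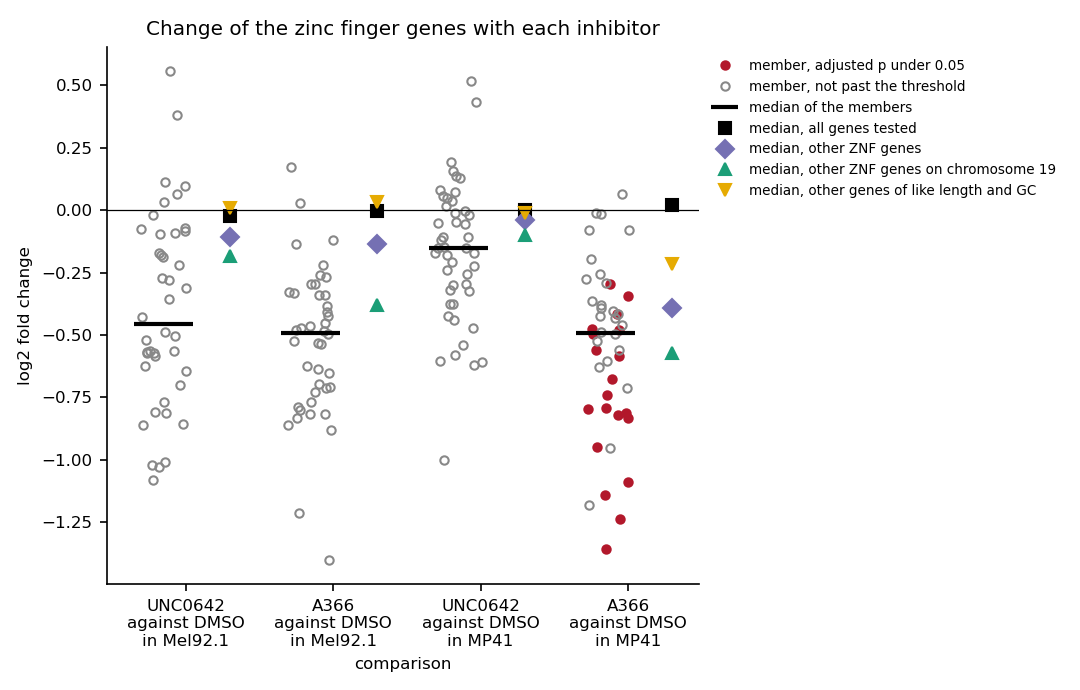
Log2 fold change of each member (circles, with horizontal jitter) in the 4 comparisons of an inhibitor with DMSO, the median of the members (bar), and the medians of 4 gene classes (symbols to the right). The bars lie at -0.46, -0.49, -0.15 and -0.49, and filled circles, which mark members past the threshold, occur only for A366 in MP41.

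The libraries of A366 in MP41 were not alike. Other long genes took 34.2%, 36.9% and 31.2% of the counts in A366 replicates 1, 2 and 3, against 40.2% to 41.6% with DMSO and 39.9% to 41.4% with UNC0642. The summed level of the 46 members was 187, 212 and 171 CPM in the same A366 libraries, against 249.7 to 258 CPM with DMSO and 226 to 239 CPM with UNC0642. The share of counts on the 4 ribosomal RNA genes was 5.93%, 8.06% and 10.96% in these A366 libraries, against 3.31% to 5.102% with DMSO and 3.55% to 5.14% with UNC0642. Replicate 3 had the lowest share on long genes, the highest share on ribosomal RNA and the lowest sum over the members. The part of either share in the change of the members was not tested. In Mel92.1 the sum was 334 to 384 CPM with DMSO, 297 to 323 under UNC0642 and 274 to 302 under A366, with no overlap between DMSO and either inhibitor, while the share on other long genes was 29.2% to 34.97% with DMSO and 29.5% to 34.5% with A366. With UNC0642 that share was lower, at 22.6%, 30.3% and 29.1%, and the share on ribosomal RNA was 32.8%, 10.1% and 19.5%, against 6.503% to 12.5% with DMSO and 7.43% to 12.2% with A366. These are shares of each library, so less RNA of these genes and more RNA of others cannot be told apart.

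**Figure D4:**
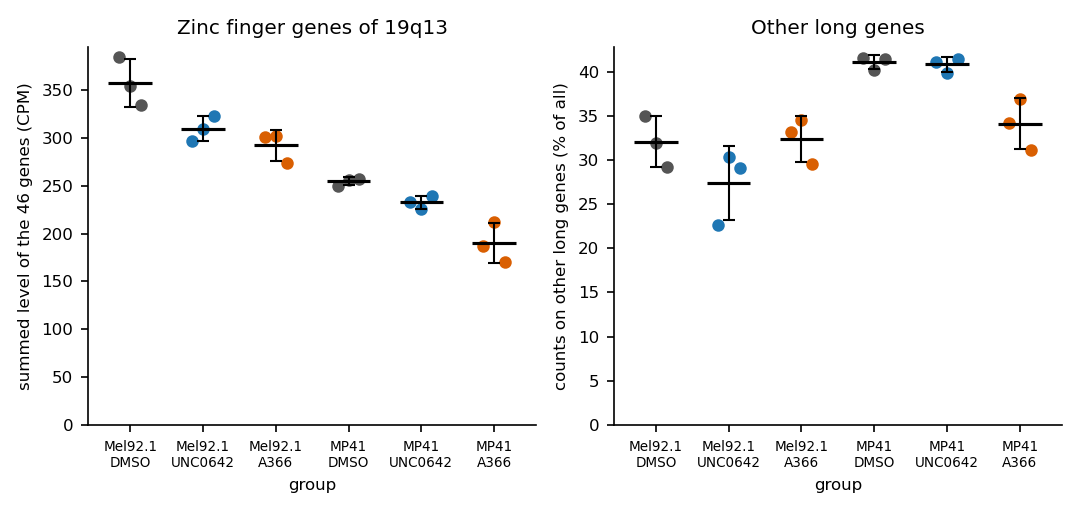
Summed level of the 46 members in CPM (left) and share of counts on other long genes in percent (right) in each library by group, with the mean (line) and SD (bar, n = 3). In MP41 both quantities are lowest with A366, and in Mel92.1 the sum over the members is lower with the inhibitors while the share on long genes with A366 spans 29.5% to 34.5%, inside the DMSO range of 29.2% to 34.97%, and that with UNC0642 spans 22.6% to 30.3%.

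ZNF850, the member with the most fingers, fell furthest with A366 in MP41. Its level was 3.22, 4.43 and 3.81 CPM with DMSO, 3.94, 2.74 and 2.42 under UNC0642, and 1.51, 1.70 and 1.33 under A366 (A366 against DMSO -1.36, SE 0.23, adjusted p = 0.000884 by edgeR). ZNF229 was at 4.404, 3.46 and 4.11 CPM with DMSO, 2.58, 2.43 and 2.94 under UNC0642, and 1.60, 2.32 and 1.61 under A366 (-1.14, SE 0.20, adjusted p = 0.00113). For both members every A366 library lay below every DMSO and every UNC0642 library. The call of ZNF229 was lost as labelled, when 2 libraries with 0 counts of it entered the A366 group (adjusted p = 0.143).

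ZNF221 was at 0.799, 1.199 and 0.843 CPM with DMSO and 0.399, 0.479 and 0.343 with A366 (-1.24, SE 0.35, adjusted p = 0.0133). ZNF155 was at 2.79, 3.32 and 2.77 CPM with DMSO and 1.65, 1.22 and 1.37 with A366 (-1.09, SE 0.28, adjusted p = 0.00745). ZNF112 was at 3.82, 2.31 and 3.24 CPM with DMSO and 1.98, 1.80 and 1.16 with A366 (-0.95, SE 0.24, adjusted p = 0.00739). Groups did not overlap for any of these 3 members. All 3 calls were lost without the 4 libraries (adjusted p of 0.117, 0.125 and 0.110), ZNF155 and ZNF112 turned to 0.97 and 0.39 as labelled, and that of ZNF221 was also lost without A366 replicate 1 (0.0523), A366 replicate 3 (0.0565) or DMSO replicate 2 (0.0506).

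The other 15 members that fell ranged from -0.83 (ZNF345) to -0.30 (ZNF146). They included ZNF224, a repressor of the aldolase A gene (-0.81, SE 0.22), ZNF420 (-0.80, SE 0.19), ZNF569 (-0.74, SE 0.15) and ZNF260 (-0.56, SE 0.11). Of the 26 members not past the threshold, 25 had values below 0 and ZNF540 had 0.06. ZNF585B had 6.28, 7.49 and 5.83 CPM with A366 against 6.30, 6.48 and 7.57 with DMSO, and these groups overlapped (-0.08, adjusted p = 0.682). Over the 46 members the fold change with A366 in MP41 had a Spearman's rho of 0.28 with transcript length and -0.15 with the number of fingers, and in Mel92.1 (42 members) -0.38 and 0.02, all given as description since members of 1 library share its depth and composition.

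**Figure D5:**
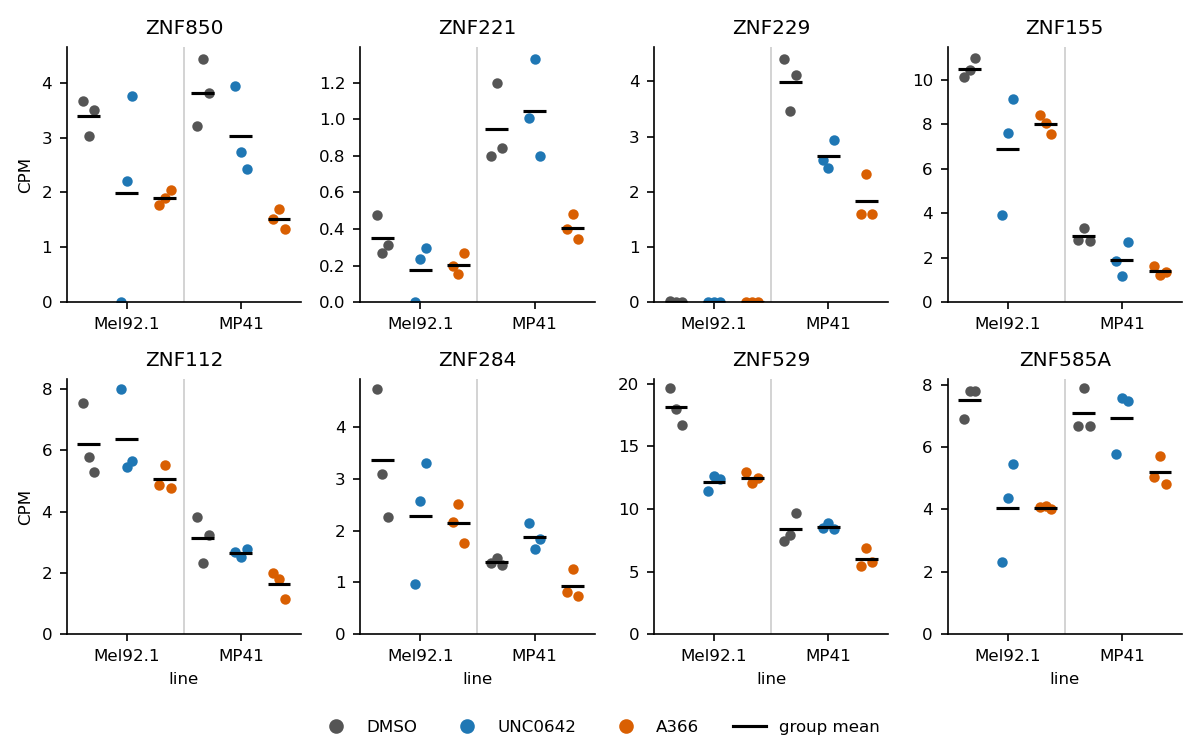
CPM of 8 members in each library (points) by line and agent, with the group mean (line) and a vertical axis from 0 in each panel. Within MP41, the group means of ZNF850, ZNF221, ZNF229, ZNF155 and ZNF112 are lowest with A366, ZNF229 is near 0 throughout Mel92.1, and ZNF529 and ZNF585A are lower with both inhibitors in Mel92.1.

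Of the members, 7 are named as lowered in the study's list for Mel92.1, ZNF155, ZNF420, ZNF285, ZNF382, ZNF568, ZNF569 and ZNF585A, and since they were chosen on these libraries their direction there is not independent evidence. Their log2 fold changes in Mel92.1 ran from -1.03 (ZNF285) to -0.02 (ZNF420) with UNC0642 and from -0.88 (ZNF585A) to -0.38 (ZNF155) with A366. In MP41 with A366 they ran from -1.09 (ZNF155) to -0.08 (ZNF285), and ZNF155, ZNF420, ZNF569 and ZNF585A passed the test there. ZNF285 and ZNF382 had SEs of 0.77 and 0.47 with UNC0642 in Mel92.1, where ZNF285 had a count of 0 in replicate 1.

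The inhibitors were compared with each other at the same dose and time, in 1 pair per line, with p-values adjusted over all genes of that line's fit. In Mel92.1 0 of 42 members differed between A366 and UNC0642 by edgeR, DESeq2 or limma voom (0.165% of all genes by edgeR), 1 had an unadjusted p under 0.05, and the median was -0.13 against 0.01 over all genes. Of all 14528 genes tested 1047 had an unadjusted p under 0.05. For ZNF529 the difference was 0.03 with a 95% interval of -0.21 to 0.27. For ZNF850, which had a count of 0 in UNC0642 replicate 1, it was -0.13 with an interval of -1.92 to 1.66. The half-width of the interval had a median of 0.63 over the 42 members in Mel92.1, wider than the median change of -0.49 with A366 against DMSO.

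In MP41, 16 of 46 members were lower with A366 than with UNC0642 and 0 were higher, while 22.0% of all genes were lower. The median was -0.42 against 0.01 over all genes and -0.20 over other genes of like length and GC content, of which 41.1% were lower. Of 190 other ZNF genes on chromosome 19, 52.1% were lower with a median of -0.50, so the shift was not particular to the members, of which 34.8% were lower. The largest differences were in ZNF221 (-1.39, 95% interval -2.16 to -0.63, adjusted p = 0.00749), ZNF284 (-1.04, -1.62 to -0.46, adjusted p = 0.00829) and ZNF850 (-1.04, -1.53 to -0.55, adjusted p = 0.00346). ZNF284 was at 1.38, 1.48 and 1.34 CPM with DMSO, 2.15, 1.65 and 1.83 under UNC0642 and 0.816, 1.26 and 0.728 under A366, so the A366 libraries lay below those of both other groups. The count of lower members was 4 with the GC and length offset, where 2835 of 14956 genes were lower. As labelled it was 6, where 1865 of 15088 genes were lower. Without the 4 libraries, which leaves 1 A366 library, the median over the members was -0.48 against -0.02 over all genes. ZNF221 was not among those called without the 4 libraries, nor ZNF284 and ZNF850 among those called as labelled.

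By edgeR no member's response was shown to differ between the lines, while DESeq2 and limma voom called some. For UNC0642, the Mel92.1 change less the MP41 change passed the edgeR test for 0 of 46 members (0.601% of all genes). An unadjusted p under 0.05 was found for 5 members, against 1546 of all 15799 genes. The smallest p was that of ZNF529 (-0.61, 95% interval -0.98 to -0.24, adjusted p = 0.172), the 1 member that DESeq2 called (1.99% of all genes called), while limma voom called 0. For A366 the like difference passed for 0 of 46 members where 13.8% of all genes passed. An unadjusted p under 0.05 was found for 2 members, against 4802 of all 15799 genes. ZNF146 had the smallest p (0.30, 95% interval 0.04 to 0.56, adjusted p = 0.114) and was the 1 member called by DESeq2 (22.1% of all genes called). Limma voom called 16 members for A366, where it called 58.7% of all genes.

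The machinery that acts with KRAB zinc finger proteins was measured through 28 listed genes, all tested in both lines. TRIM28, the corepressor bound by KRAB domains, was at 686 ± 43.9 CPM in Mel92.1 and 147 ± 5.97 in MP41 with DMSO (SD, n = 3), a log2 difference of 2.20 (SE 0.08). SETDB1, which trimethylates H3K9, was higher in Mel92.1 by 0.70 (SE 0.09), and EHMT1 by 1.12 (SE 0.09), while EHMT2 had 0.12 (SE 0.08, adjusted p = 0.188). Of the 28 genes 16 were higher and 7 lower in Mel92.1, where 34.5% of all genes were higher and 34.8% lower. As labelled 11 were higher and 6 lower, where 4461 of 15799 genes were higher and 4273 lower.

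In Mel92.1 ATRX, a chromatin remodeller of H3K9-methylated repeats, rose with UNC0642 from 29.9 ± 2.62 to 52.2 ± 2.71 CPM (SD, n = 3; log2 fold change 0.81, SE 0.09, adjusted p = 0.00218 by edgeR) and with A366 to 43.1 ± 0.739 CPM (0.53, SE 0.09, adjusted p = 0.0499). MORC2, an effector of the HUSH silencing complex, fell with A366 (-0.48, SE 0.07, adjusted p = 0.0399). Neither A366 call was stable. By edgeR both were lost as labelled (adjusted p = 0.162 for each), without the 4 libraries, with the replicate block (0.212 for ATRX) and without any 1 library other than UNC0642 replicate 1 (0.0633 to 0.284 for ATRX and 0.0654 to 0.284 for MORC2). The UNC0642 call of ATRX was lost as labelled and with the offset and block together (0.0838), and held without the 4 libraries. TRIM28, SETDB1, EHMT1 and EHMT2 did not pass the test with either inhibitor in Mel92.1, and the value farthest from 0 among them was -0.19 (EHMT2 with UNC0642).

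In MP41 0 of the 28 passed the edgeR test with UNC0642, where 0.241% of all genes passed. DESeq2 called 1 lower, where it called 85 of 14956 genes lower. With A366 4 rose and 13 fell, where 22.5% of all genes rose, 23.5% of all genes fell and 41.7% of other long genes fell. As labelled 3 rose and 5 fell, where 2922 of 15088 genes rose and 2029 fell. TRIM28 (0.23, SE 0.07), EHMT2 (0.23, SE 0.06), KDM4A, an H3K9 demethylase (0.27, SE 0.10), and MPHOSPH8 of the HUSH complex (0.37, SE 0.07) rose. SMARCAD1, a remodeller (-0.66, SE 0.09), ATF7IP, the partner of SETDB1 (-0.66, SE 0.11), FAM208A of the HUSH complex (-0.52, SE 0.10), ZNF644, a partner of EHMT2 (-0.49, SE 0.13), UHRF1 (-0.45, SE 0.07) and ZNF274, which targets SETDB1 to ZNF genes (-0.44, SE 0.09), fell. SETDB1 had -0.20 (SE 0.08, adjusted p = 0.0739) and EHMT1 -0.12 (SE 0.08, adjusted p = 0.207). The remaining 7 that fell, SUV39H2, KDM4C, CBX5, PPHLN1, DNMT1, MORC2 and HDAC2, ranged from -0.43 to -0.21.

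Several of these calls turned on a setting. TRIM28 had -0.09 with the GC and length offset (adjusted p = 0.137), and its call was also lost without A366 replicate 1 or 3 or DMSO replicate 1 or 3 (0.0555 to 0.116, edgeR). EHMT2 lost its call as labelled (0.0974), without the 4 libraries (0.0513) and with the offset (0.425). KDM4A lost it as labelled, without the 4 libraries, and without A366 replicate 1 or 2, DMSO replicate 1 or 3 or UNC0642 replicate 2 (0.0542 to 0.150). HDAC2 turned to 0.32 with the offset (adjusted p = 0.0142). HDAC2 and MORC2 lost their calls as labelled and without any 1 of several libraries, A366 replicates 1 and 3 and DMSO replicates 1 and 3 among them. SUV39H2, CBX5, PPHLN1 and UHRF1 were above 0 as labelled and not lower, and SMARCAD1 and DNMT1 lost their calls there. CBX5, PPHLN1, FAM208A and ZNF644 lost theirs with the offset. MPHOSPH8, ATF7IP, ZNF274 and KDM4C kept theirs under each alternative run.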

How the data were processed

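The table the authors deposited holds RSEM expected counts per gene, not normalized, for 26475 human gene symbols in 18 libraries. Processing notes name RSEM 1.2.15 and Bowtie2 2.1.0 with the hg38 build, while the study's methods describe other steps, so how the table was made is not fully settled. Counts were rounded to whole numbers. Each line's 9 libraries were fitted with edgeR 4.0.16 in R 4.3.3 (filterByExpr, TMM factors, glmQLFit, glmQLFTest). Differences between lines and between responses came from a fit of all 18. P-values were adjusted by the Benjamini-Hochberg method over all genes tested, with a threshold of 0.05. On simulated data with 200 genes changed by 1.5 (log2), larger than most changes of the members, the test recovered 168 for A366 against DMSO in Mel92.1 (14377 genes) and 196 in MP41 (14814 genes). It made 13 false calls in each. The changed genes were drawn from those averaging above 1 CPM, so recovery of members below that level was not tested.

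Positions, transcript length and GC content came from GENCODE release 29 (GRCh38), where 23899 symbols matched by name, 717 through a synonym and 1859 not at all. Fingers were counted in the longest reading frame. Promoter windows came from RefSeq (GRCh38.p14). Alternatives used DESeq2 1.42.0, limma 3.58.1 (voom) and mgcv 1.9.3 for the GC and length offset.

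The members, the lists and the rule for named genes were chosen with earlier results of these data known. The rule took up to 5 members a direction past the threshold per inhibitor, or else the 3 with the smallest p, up to 5 a direction for the lines, up to 3 for A366 against UNC0642 and for the responses, the 5 highest and 3 lowest levels, and the listed partners past the threshold with TRIM28, SETDB1, EHMT1 and EHMT2 always given. Neighbouring pairs and ZNF585A, ZNF383 and ZNF382 in them were named after their values were seen. Tandem copies share sequence, so counts of close relatives are uncertain.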

Additional observations from a re-analysis of the deposited data

How the results depend on the processing

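Over the 18 named results past the threshold, chosen for the largest changes, 389 of 414 repeats under an alternative kept direction and call. Another 23 lost the call and 2 reversed, ZNF155 (0.969) and ZNF112 (0.391) for A366 in MP41 with libraries as labelled. Of the 389, 244 came from leaving out 1 library. As labelled 10 of the 18 kept direction and call and 6 lost the call. With libraries as labelled, the members called were 8 for A366 and 6 for A366 against UNC0642 in MP41, 14 between the lines and 14 for the A366 response difference, and without the 4 libraries 13 and 9 for the first 2. In Mel92.1 DESeq2 called 1 (UNC0642) and 2 (A366), and it called 1 for each response difference. Limma voom called 2 and 24 in Mel92.1, and 36 with A366 in MP41, where 5045 of 14956 genes were lower. It called 35 between the lines, where 6462 of 15799 genes were higher and 6678 lower. For the A366 response difference it called 16, where it called 58.7% of all genes. The GC and length offset gave 1 with UNC0642 in Mel92.1 (35 of 14528 genes lower), and 12 and 4 in MP41 (2817 and 2835 of 14956 lower). With it the median for A366 in MP41 was -0.249. Between the lines it gave 33, of which 28 were higher in Mel92.1 (5614 of 15799 genes higher) against 15 by the main settings. The cause of these shifts was not tested.

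Replicate numbers did not pair the libraries, since 1 of 18 same-numbered pairs had deviations correlated over 0.1 (range -0.131 to 0.148). With the replicate block, 22 members were called for A366 in MP41 and 15 against UNC0642, all lower. Of all 14956 genes 3222 and 3040 were lower there. The offset with the block gave 10 and 3, where 2570 and 2565 of 14956 genes were lower. Leaving out 1 library gave 13 to 23 for A366 and 7 to 18 for A366 against UNC0642 in MP41. The fewest came without A366 replicate 3, where 2750 and 2651 of 15220 genes were lower. The most came without A366 replicate 2, where 4082 and 3994 of 15227 were lower. Between the lines it gave 19 (5278 of 16137 genes higher, 4993 lower) to 29 (6004 of 16120 higher, 5967 lower). In Mel92.1 it gave 0 to 1 (UNC0642) and 0 to 5 (A366), both highest without UNC0642 replicate 1. For the A366 response difference it gave 0 to 1. RLE factors and no filter on low counts left every count within 1.5 times its value. Members with a few counts per library, ZNF404, ZNF233 and ZNF221, could show large changes only.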
